A study of Drosophila melanogaster with 12 samples.

Results

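The sequences described here are small RNAs of 23 to 29 nt, the size of piRNAs, that have U at position 1 and a base other than A at position 10, counted from the 5′ end. They are called members below. In the 12 libraries together, 39828 of the 83962 distinct sequences of piRNA size (47.4%) were members, out of 95922 distinct sequences of any length. Sequences that shared 15 nt with 2S rRNA, a short ribosomal RNA of nearly the same size, or their first 18 nt with the microRNAs miR-8 or bantam had been left out. Of the other sequences of piRNA size, 17190 had both U at position 1 and A at position 10, 11258 had A at position 10 only, and 15686 had neither. The 2 positions chose the members, so they are no finding, and neither is a 10A base in the partners described below. The length limits also cut through a continuous distribution. In heterozygous Piwi RNA 542 members were 23 nt long and 218 otherwise matching sequences were 22 nt long, while 1775 members were 29 nt and 665 matching sequences 30 nt long.

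piRNAs guide Piwi-family proteins to transposon RNA in animal gonads. In Drosophila ovaries, Piwi is nuclear and acts on transcription in germ cells and somatic follicle cells, while Aub and AGO3 cleave RNA in the germline cytoplasm. Cleavage guided by a piRNA with U at position 1 can yield a new piRNA with A at position 10 whose 5′ end overlaps the guide by 10 nt, a cycle called ping-pong. Members therefore have the first base typical of guides loaded into Piwi and Aub, without the base typical of ping-pong products. The piRNA machinery also makes piRNAs in steps along 1 transcript, called phasing, in which a cut before a U sets the 3′ end of 1 piRNA and the 5′ end of the next. Krimper (krimp) is a germline protein known to bind Aub and AGO3.

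The study sequenced ovaries of adult Drosophila melanogaster and a cultured line, OSC, of ovarian somatic cells. Total small RNA, Piwi-bound RNA and Aub-bound RNA came from krimp heterozygous ovaries, which served as control, and from krimp mutant ovaries. AGO3-bound RNA came from aub mutant ovaries, from those of the wild-type strain Oregon R and from krimp heterozygous ones. Myc-Piwi, myc-Aub and myc-AGO3 were expressed ectopically in OSC with krimp knocked down, and were pulled down with a myc, an Aub and an AGO3 antibody. An OSC library with krimp intact was not analysed here, so the knockdown cannot be told apart from the cell line. The alleles of krimp and aub are not named in the labels. One label of the krimp mutant Aub library, its source name, calls it a control, against the title and the genotype, which were followed here. No mRNA was measured, so the genotypes and the knockdown could not be checked.

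Each group was 1 library, so differences below lack a check by replicates, and libraries were not tested against each other. Listed reads ranged from 116014 to 24979879 per library, and each file listed only sequences with at least 100 reads. A sequence that a file did not list could have had up to 99 reads there, and a listed total does not give the depth of its library. For the read shares of members, Clopper-Pearson (exact) 95% intervals were at most 0.6 percentage points wide. Such intervals cover counting error only, and PCR reads without molecular identifiers are not independent molecules. Intervals over distinct sequences are wider and are given where they bear on a comparison. No sequence is printed because its chromosome could not be looked up here, so members are described by length, by the base at position 10 and by reads.

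Members were the largest class of piRNA-size reads bound to Piwi and made up a small share of those bound to AGO3. In krimp heterozygous ovaries they held 60.6% of Piwi reads, 41.1% of Aub, 13.3% of AGO3 and 43.8% of total small RNA. The order Piwi, Aub, AGO3 was the same when each distinct sequence was counted once, at 57.7% (95% interval 57.3 to 58.1), 45.9% (44.1 to 47.6) and 16.1% (15.4 to 16.8). The same order was seen in OSC, where members held 70.8% of myc-Piwi, 58.1% of myc-Aub and 26.2% of myc-AGO3 reads. AGO3 of Oregon R ovaries had the lowest share of the 12 libraries, 7.29%, from 31 members. Among reads that began with U, the part without A at position 10 was 72.8% with heterozygous Piwi, 54.0% with Aub and 37.4% with AGO3.

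The member share in krimp mutant ovaries was much lower in total small RNA and in Aub-bound RNA, and nearly the same in Piwi-bound RNA. It was 18.8% against 43.8% of total reads, 13.7% against 41.1% of Aub reads and 58.4% against 60.6% of Piwi reads. Over distinct sequences the mutant Aub share was 19.9% (95% interval 18.5 to 21.3), against 45.9% in the heterozygote. The mutant total share was 25.5% (24.6 to 26.5), against 48.0%. The 621 mutant Aub members fell into 281 groups of overlapping sequences, so the intervals do not measure a difference between genotypes. In total RNA the lower share went with fewer reads that began with U. Of total reads without A at position 10, 23.3% began with U in the mutant and 66.1% in the heterozygote, while the part of 1U reads that lacked 10A was 80.4% and 68.3%. In Aub RNA both measures were lower in the mutant, at 34.6% against 77.1% for the first and 26.5% against 54.0% for the second. Sequences with neither base held 61.9% of mutant total reads and sequences with both bases 38.0% of mutant Aub reads, so the class that held the most reads in the mutant differed between total and Aub RNA. In whole-ovary libraries, fewer cells of a type and less RNA per cell cannot be told apart.

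**Figure D1:**
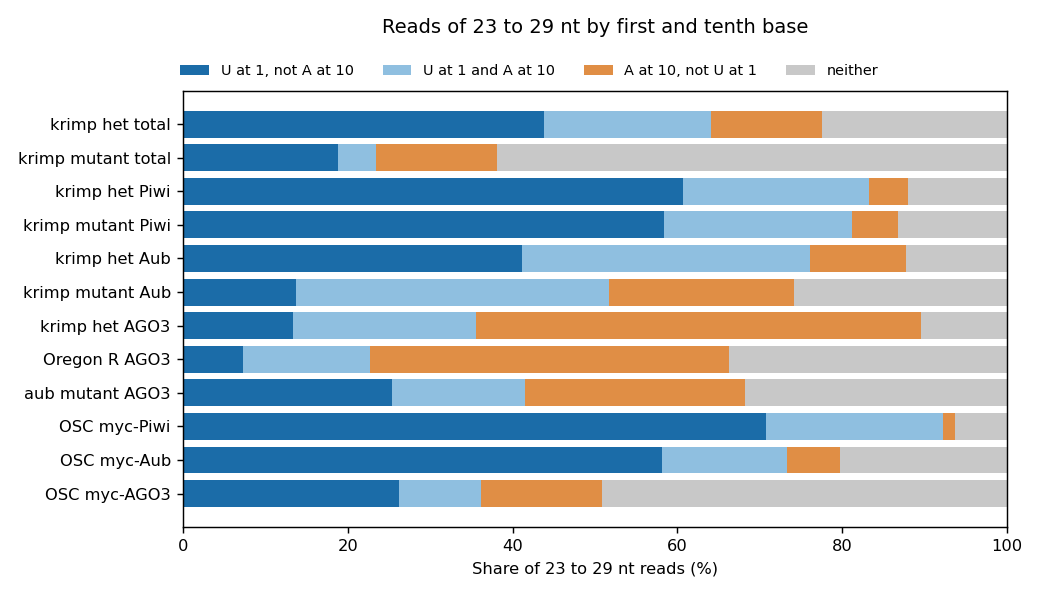
Share of 23 to 29 nt reads (horizontal axis, %) in 4 classes by the bases at positions 1 and 10, for each of the 12 libraries (1 library per bar). The dark blue bars are the members, longest in myc-Piwi (70.8%) and shortest in Oregon R AGO3 (7.29%), with 18.8% in krimp mutant total and 13.7% in krimp mutant Aub against 43.8% and 41.1% in the heterozygote.

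Most members were listed in a single library, and few were abundant on their own. Of the 39828, 23994 (60.2%) were listed in 1 library only and 402 in at least 5. The lists differed in length, and the same share over all piRNA-size sequences is not given here. They had 26178 different starts of 18 nt, of which 18195 (69.5%) belonged to 1 member, and no start had more than 17. Heterozygous Piwi listed 27757 members, and its most abundant one held 0.331% of its member reads, with 3524 members making up 50% of them. The other lists were shorter, with 1448 members in heterozygous Aub, 1776 in AGO3 and 11994 in total RNA. The mutant libraries listed 16401 members for Piwi, 621 for Aub and 2177 for total RNA. In mutant total RNA 41 members held 50% of member reads and in mutant Aub 40 did, against 1016 and 171 in the heterozygote. The member reads of these mutant libraries therefore rested on few sequences.

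One member was listed in all 12 libraries. It was 26 nt long with G at position 10, and it had 10030 reads in heterozygous total, 3048 in Piwi, 234 in Aub and 303 in AGO3. The mutant had 7717 reads of it in total RNA, 4753 in Piwi and 7845 in Aub, Oregon R AGO3 had 118 and aub mutant AGO3 537. In OSC it had 186 reads with myc-Piwi, 120 with myc-Aub and 255 with myc-AGO3. It was thus as abundant in total RNA of the mutant as of the heterozygote, at 883 against 855 reads per 1000000 piRNA-size reads (RPM), and far higher in mutant Aub, at 3269 against 178. This member contains the 6 nt motif TAGTGG (T for U, as in the files), which is described with the Aub comparison.

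Within heterozygous ovaries, most Piwi member reads were in members listed for Piwi alone. Aub and AGO3 shared most of their member reads with each other. Sequences that Piwi also listed held 64.1% of Aub and 48.4% of AGO3 member reads. Of the members in the 3 immunoprecipitates, 26939 were listed for Piwi alone and held 90.5% of Piwi member reads. Only 364 members were listed for all 3 proteins, yet they held 53.8% of Aub and 43.4% of AGO3 member reads, against 3.72% of Piwi member reads. A further 360 were listed for Aub and AGO3 without Piwi, 270 for Piwi and Aub and 184 for Piwi and AGO3. Members listed for Aub alone numbered 454 and for AGO3 alone 868, and they held 15.5% and 28.2% of those libraries' member reads. The lists differ in length, at 48109 piRNA-size sequences for Piwi, 3158 for Aub and 11043 for AGO3. A sequence absent from the short Aub list may still have been bound. It could have had up to 75.4 RPM in Aub, against 5.88 RPM for one absent from Piwi. The same overlap over all piRNA-size sequences is not given here, so whether members differ from other classes in this was not tested.

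The most abundant member of each of the 3 proteins was listed for all 3. The most abundant heterozygous Piwi member, 27 nt with U at position 10, had 33779 reads in Piwi, 201 in Aub and 121 in AGO3, and 11965 in total RNA. The most abundant Aub member, 25 nt with G at position 10, had 864 reads in Piwi, 12425 in Aub, 9836 in AGO3 and 7639 in total RNA. The most abundant AGO3 member, 24 nt with G at position 10, had 302 reads in Piwi, 10643 in Aub, 27682 in AGO3 and 9881 in total RNA. Each was thus present in all 3 immunoprecipitates at very unequal levels, and as a share of piRNA-size reads the first was highest in Piwi, at 2005 RPM against 153 in Aub, and the other two in Aub, at 9463 and 8106 RPM. The third, although it led the AGO3 list, stood at 4141 RPM in AGO3.

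Members bound to Piwi were longest and those bound to AGO3 shortest in heterozygous ovaries. The read-weighted mean length was 26.2 nt in the Piwi library, 25.3 nt in Aub and 24.5 nt in AGO3, with SDs over reads of 1.37, 1.41 and 1.37 nt. The difference was also present for the same 5′ ends, taken as members that share their first 18 nt. Of the 500 such ends in Piwi and Aub, 54% were shorter in Aub and 11.8% longer, with a median difference of -0.094 nt. Of 511 in Piwi and AGO3, 66.0% were shorter in AGO3 and 6.65% longer, with a median of -0.547 nt. Between Aub and AGO3, 58.3% of 525 shared ends were shorter in AGO3 and 11.05% longer. The order of the 3 proteins by length was thus also seen with the 5′ end held fixed.

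Mean lengths differed by under 0.1 nt between krimp mutant and heterozygous ovaries for Piwi and Aub. Mutant Piwi members averaged 26.3 nt, and 7291 5′ ends shared with the heterozygote had a median difference of 0 nt. Mutant Aub members averaged 25.4 nt against 25.3 nt in the heterozygote, and counted once per sequence the difference turned from 0.084 to -0.047 nt. Of 120 5′ ends shared by the 2 Aub libraries, 50.8% were shorter and 15% longer in the mutant, with a median difference of -0.0042 nt. In mutant ovaries 57.1% of 210 5′ ends shared by Piwi and Aub were again shorter in Aub and 10% longer. Total RNA differed more, since the most common member length was 23 nt in mutant and 25 nt in heterozygous ovaries, but the 1163 shared 5′ ends had a median difference of 0 nt. Of these shared ends, 21.67% were shorter and 21.15% longer in mutant total RNA. AGO3 members were longer in aub mutant ovaries, with a mean of 26.4 nt, than in krimp heterozygous ovaries, and 68.4% of 38 shared ends were longer there, by a median of 0.894 nt over all 38. Oregon R AGO3 members were longer still, with a mean of 27.4 nt from 31 members, and of the 8 ends it shared with the aub mutant 3 were shorter and 1 longer in the mutant, with a median of 0 nt. The 2 controls thus lay on either side of the aub mutant.

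**Figure D2:**
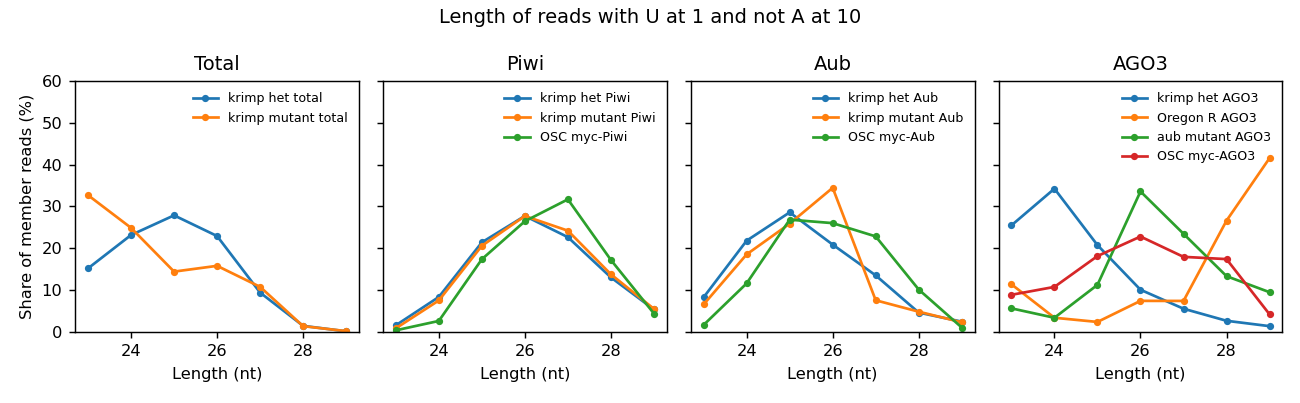
Share of member reads (vertical axis, %) at each length from 23 to 29 nt (horizontal axis) in total, Piwi, Aub and AGO3 libraries, 1 line per library. In krimp heterozygous ovaries Piwi peaks at 26 nt, Aub at 25 nt and AGO3 at 24 nt, and mutant total RNA peaks at 23 nt.

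The base after the 3′ end was read from longer sequences with the same start listed in any library. This covers only 5′ ends listed at several lengths, and a base added to the RNA could not be told apart from the next genomic base. For 3750 heterozygous Piwi 5′ ends, the base that followed the member's most abundant length was U in 58.4% (95% interval 56.8 to 60.01). At the last 7 bases of the same members U made up 14.5% to 30.7%. In mutant Piwi the next base was U in 62.4% of 2545 ends (60.5 to 64.3) and in OSC myc-Piwi in 68.4% of 139 (59.9 to 76.0). A U after the 3′ end was therefore frequent in Piwi members of both krimp genotypes and of OSC. In krimp heterozygous ovaries it was less frequent for Aub, at 46.4% of 407 ends (41.5 to 51.4), and for AGO3, at 38.4% of 568 (34.4 to 42.5). Mutant Aub had 44.8% of 174 (37.3 to 52.5), close to heterozygous Aub. Other Aub and AGO3 libraries were as high as Piwi, with 67.3% of 104 myc-Aub ends (57.4 to 76.2), 62.5% of 40 myc-AGO3 ends (45.8 to 77.3) and 61.1% of 54 aub mutant AGO3 ends (46.9 to 74.1). The pattern was not particular to members, as the other 3 classes of heterozygous Piwi sequences had U next in 54.5% to 58.8%.

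**Figure D3:**
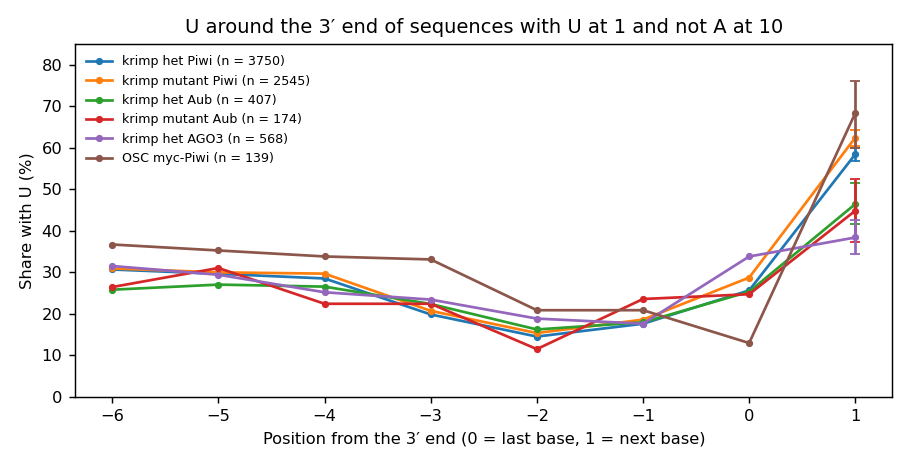
Share of members with U (vertical axis, %) at the last 7 bases and at the next base (position 1 on the horizontal axis), with exact 95% intervals for the next base, in 6 libraries. U at the next base reached 58.4% in heterozygous and 62.4% in mutant Piwi, 46.4% in heterozygous Aub and 38.4% in AGO3.

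Members of Aub and AGO3 often had a ping-pong partner, while those of Piwi rarely had one. A partner is a sequence whose first 10 nt are the reverse complement of the member's first 10 nt, searched among the 2500 most abundant piRNA-size sequences of a library, and the background is the mean for 5′ overlaps of 11 to 20 nt. Within the same heterozygous library, 113 of 1150 Aub members (9.83%, 95% interval 8.17 to 11.7, background 0.165%) and 93 of 369 AGO3 members (25.2%, 20.9 to 29.96, background 0.271%) had one. None of 1612 Piwi members did, where the exact 95% interval reaches up to 0.229%, with a background of 0.236%. Across proteins, 22.4% of Aub members had a partner in AGO3 (background 0.296%) and 12.5% of AGO3 members one in Aub (0.325%), while 1.18% of Piwi members had one in AGO3 (0.0993%). The number of possible partners differed, since the 2500 sequences held 94 with A at position 10 and no U at position 1 in Piwi, 339 in Aub and 1278 in AGO3. For Piwi, where this pool was smallest, the search had the least room to find partners. Sequences of any class can meet the background overlaps, so the background is not a like measure for the 10 nt value. With all listed sequences searched, 547 of 27757 heterozygous Piwi members (1.97%, background 2.65%) had a partner in the same library.

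The krimp mutant differed between total and Aub-bound RNA. In mutant total RNA 0 of 523 members had a partner, which allows up to 0.703%, against 44 of 1117 (3.94%, 2.88 to 5.25, background 0.116%) in the heterozygote. In mutant Aub RNA 111 of 483 members (22.98%, 19.3 to 27.0) had a partner in the same library, over a background of 1.20%, a higher share than in heterozygous Aub. The search held 594 possible partners for mutant Aub and 339 for heterozygous Aub, and this difference was not corrected for. Of the same mutant Aub members, 18.0% had a partner in heterozygous AGO3 (background 0.890%). The mutant Aub peak was also broader, with 5.38% of members at an overlap of 9 nt and 6.21% at 11 nt, against 0.522% and 1.04% in heterozygous Aub. With all listed sequences searched instead, 14 of 2177 mutant total members (0.643%, 0.352 to 1.08, background 0.115%) had a partner. Mutant total RNA was thus low in partners but not without them. The same search gave 9.52% in heterozygous total (background 1.27%). With the 300 most abundant sequences, 22 of 82 aub mutant AGO3 members (26.8%, 17.6 to 37.8) had a partner, and 0 of 25 in Oregon R AGO3, which allows up to 13.7%. None was found among 220 myc-Piwi, 177 myc-Aub and 91 myc-AGO3 members of OSC, which allows up to 1.66%, 2.06% and 3.97%.

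**Figure D4:**
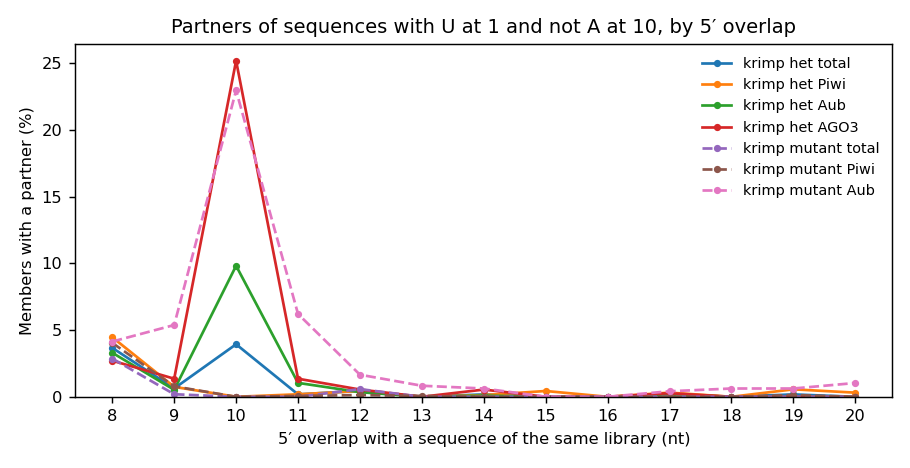
Share of members (vertical axis, %) that have a partner in the same library at each 5′ overlap from 8 to 20 nt (horizontal axis), among the 2500 most abundant sequences of 7 krimp ovary libraries, with mutant libraries dashed. Peaks at 10 nt stand at 25.2% in heterozygous AGO3, 22.98% in mutant Aub, 9.83% in heterozygous Aub and 3.94% in heterozygous total, and at 0 in both Piwi libraries and in mutant total.

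Aub-bound members were compared between krimp mutant and heterozygous ovaries by each sequence's share of piRNA-size reads, with an unlisted sequence set to 99 reads so that its fold is a lower bound. Of 1866 members listed in either library, 526 (28.2%) had a share at least 4-fold lower in the mutant, where 18.3% of all piRNA-size sequences did. A share at least 4-fold higher was found for 42 members (2.25%), against 5.22% of all. Members were thus more often lower and less often higher than all Aub sequences of this size, in libraries whose member lists had only 203 sequences in common. Among these 203 the median log2 ratio of mutant to heterozygote was -0.91, against -0.26 for all 800 sequences listed in both. Relative to all listed reads instead of piRNA-size reads, log2 ratios were 0.44 higher, 352 members (18.9%, against 12.02% of all) were lower and 67 (3.59%, against 7.62%) higher.

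The 2 members with the largest losses from Aub were also listed for AGO3. Both were picked for the size of this loss, and members listed for AGO3 held 74.2% of all heterozygous Aub member reads. The AGO3 listing of these 2 therefore adds no support. A 23 nt member with C at position 10 had 10523 reads in heterozygous Aub, 14742 in AGO3, 693 in Piwi and 4280 in total RNA. In the mutant it was listed in neither Aub nor total RNA and had 101 reads in Piwi, so its Aub share was at least 194-fold lower. A 24 nt member with C at position 10 went from 8305 reads in heterozygous Aub to unlisted, at least 153-fold lower. Not all abundant members were affected to this extent. The leading heterozygous Aub member had 3151 reads in mutant Aub against 12425, 7.21-fold lower in share, and the leading AGO3 member 6640 against 10643, 2.93-fold lower.

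The 2 most abundant members of mutant Aub contained TAGTGG. Its share among all members, 202 of 39828 (0.507%), was near that among all piRNA-size sequences (0.457%), and its reverse complement was in 0.256% of members. In mutant Aub, 36 members with the motif held 31.6% of member reads, against 0.904% from 15 members in heterozygous Aub. Most of the 36 were variants of few stretches. The largest group of overlapping mutant Aub members had 11, all with the motif, and held 14.1% of member reads. The next group had 26 members, 17 of them with the motif, and held 13.5%. The most abundant mutant Aub member was 26 nt long with the motif and G at position 10, with 686 reads in heterozygous and 24719 in mutant Aub, 19.7-fold higher. It was also 4.51-fold higher in mutant Piwi (14361 against 4679 reads), and in total RNA it had 6492 reads against 7069. A second 26 nt member with the motif had 222 and 11135 reads, 27.4-fold higher. Of 40 members with the motif listed in either Aub library, 16 were at least 4-fold higher and 2 at least 4-fold lower. Since many of them overlap, these are not counts of independent sequences. What RNA these sequences come from was not determined here.

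Without the sequences that hold TAGTGG, members were 9.89% of mutant and 40.9% of heterozygous Aub reads, so the difference between the genotypes was larger without them. Of 1826 members without the motif, 489 (26.8%, against 17.1% of all piRNA-size sequences without it) were at least 4-fold lower and 29 (1.59%, against 5.18%) at least 4-fold higher. None of the 32 motif members searched in mutant Aub, many of them overlapping variants, had a ping-pong partner, and 24.6% of the other 451 did. The rRNA 2S, which was left out of the members, made up 19.9% of otherwise eligible mutant Aub reads and 5.04% of heterozygous ones, and its part in the result was not tested.

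**Figure D5:**
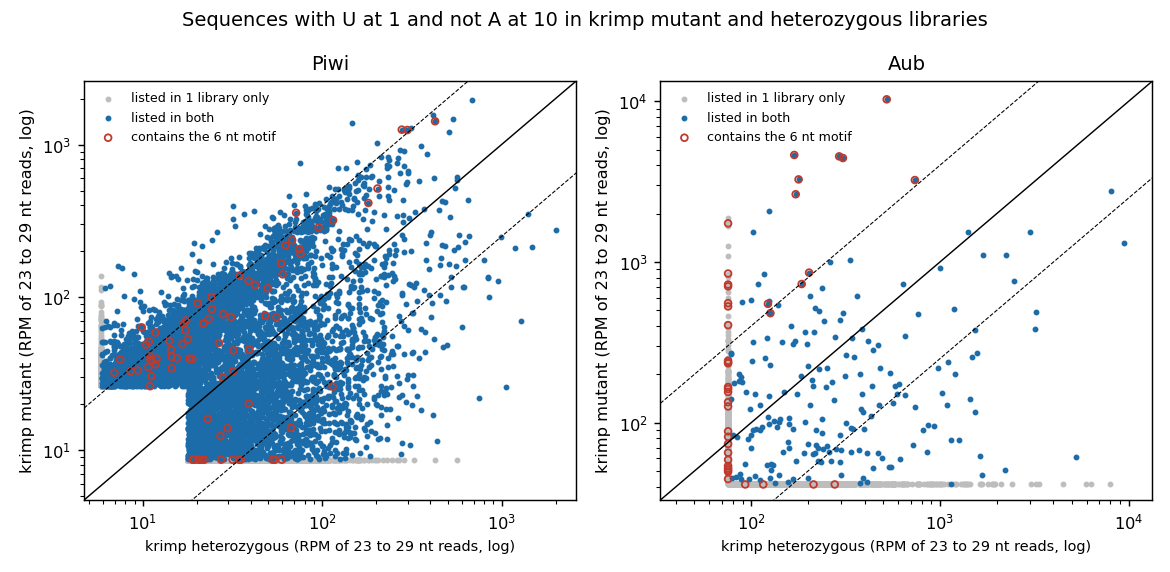
RPM, reads per 1000000 reads of 23 to 29 nt, in krimp heterozygous (horizontal axis, log) and mutant (vertical axis, log) libraries, 1 point per member, for Piwi (members with at least 300 reads in 1 library) and Aub (all members). Dashed lines mark 4-fold differences, grey points on the margins are members listed in 1 library only and drawn at 99 reads, and red circles mark TAGTGG, which lead the mutant side in Aub, with the highest at 10300 against 523 RPM.

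Reads of mutant Aub members also often began with UCC. C was the base at position 2 in 64.5% of their reads and at position 3 in 62.4%, against 27.7% and 23.4% in heterozygous Aub and 32.4% and 32.3% in heterozygous Piwi. Members that began with UCC held 46.0% of mutant Aub member reads and were 169 of 621 sequences (27.2%), against 4.78% of reads and 5.18% of sequences in heterozygous Aub. Those with TAGTGG accounted for part of this. The 145 UCC members without the motif still held 19.0% of mutant Aub member reads, and 69 such members held 4.38% in heterozygous Aub. All UCC members held 10.4% of member reads in heterozygous Piwi and 9.95% in mutant Piwi. In Oregon R AGO3 they held 32.6%, from 6 members of which 5 had the motif. The UCC share of the other 3 classes of mutant Aub is not given here. Heterozygous Aub and AGO3 members had little C at position 4, in 10.2% and 5.59% of reads, where heterozygous Piwi had 21.4%.

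Most mutant Aub member reads came from sequences that heterozygous libraries had listed too. Of the 621 members, 230 (37.0%) were in no heterozygous immunoprecipitate, and they held 17.9% of reads. The 92 that Piwi, Aub and AGO3 all listed in the heterozygote held 44.9%, and 124 that only Piwi listed held 14.9%. Thus 92 shared members, 11 of them with TAGTGG, carried much of the member reads. The heterozygous lists differ in length, and the same shares over all piRNA-size sequences of mutant Aub are not given here. Whether members differ from other classes in this was not tested. All members together were 13.7% of the piRNA-size reads of mutant Aub. A 26 nt member with U at position 10 stood apart, with 4502 reads in mutant Aub, 134 and 237 in heterozygous and mutant Piwi, and no listing in heterozygous Aub, so it was at least 24.9-fold higher.

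Piwi-bound members differed little as a class between the genotypes, though single members differed many-fold. Of 34351 members listed in either Piwi library, 1516 (4.41%) were at least 4-fold higher and 1445 (4.21%) at least 4-fold lower in the mutant, where 4.48% and 3.69% of all piRNA-size sequences were. These shares are near the background. Relative to all listed reads, log2 ratios fell by 0.30 throughout, and 559 members (1.63%, against 1.78% of all) were higher and 2149 (6.26%, against 5.57%) lower, so the balance of the 2 directions depends on the scaling. Among the 9807 members listed in both, the median log2 ratio was 0.92, near the 0.89 of all 16894 sequences listed in both. This median leaves out the 17950 members listed in the heterozygote alone and the 6594 listed in the mutant alone.

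The most abundant Piwi members differed in both directions. The leading heterozygous member had 33779 reads there and 3154 in the mutant, 7.29-fold lower in share, and the second, also 27 nt, had 25058 and 2445, 6.98-fold lower. The leading mutant member, 25 nt with U at position 10, had 22405 reads and 11502 in the heterozygote, 2.86-fold higher, and the second, 26 nt, had 17817 and 6977, 3.75-fold higher. Both mutant leaders were listed in neither Aub nor AGO3. Both heterozygous leaders were listed for heterozygous Aub, but with only 201 and 137 reads, near the minimum of 100. They were also more abundant in heterozygous Piwi, at 2005 and 1487 RPM against 683 and 414 for the mutant leaders. At the extremes, a 29 nt member had 9559 heterozygous reads and none listed in the mutant, at least 65.7-fold lower, and a 25 nt member 7170, at least 49.3-fold lower. In the other direction, a 26 nt member with G at position 10 was unlisted in the heterozygote and had 1582 mutant reads, at least 23.5-fold higher.

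Members that OSC also listed were higher in mutant Piwi, and members that Aub or AGO3 also listed were lower. Of 259 members shared with OSC myc-Piwi, 33 (12.7%) were at least 4-fold higher and 3 (1.16%) at least 4-fold lower, where 4.48% and 3.69% of all piRNA-size sequences were, and the 185 listed in both Piwi libraries had a median log2 ratio of 1.63. Of 639 listed in heterozygous Aub, 8 (1.25%) were higher and 95 (14.9%) lower, with a median of -0.55 over 272, and of 562 listed in AGO3, 12 (2.14%) were higher and 56 (9.96%) lower, with a median of -0.40 over 245. For the 33222 members in none of these lists the shares were 4.41% and 4.01% and the median 0.95. The other scaling shifts every log2 ratio by the same -0.30, so it cannot change the order of these medians and is no check on it. The 4-fold counts of these sets under that scaling are not given here. The Aub and AGO3 lists came from heterozygous ovaries, which favours members abundant in the heterozygote, and the OSC list came from cells with krimp knocked down. Proportions of somatic and germline cells in the ovaries were not measured.

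In total small RNA, members listed in heterozygous Aub or AGO3 were lower in the mutant by a larger factor than those listed by Piwi alone. Members listed in heterozygous Aub or AGO3 (1905 in the total libraries) made up 156118 RPM in the heterozygote and 13615 in the mutant, 11.5-fold lower. With every unlisted one at 99 mutant reads the difference was still at least 4.61-fold. For the 7539 listed by Piwi alone the values were 182734 and 55872, 3.27-fold lower, and at least 1.40-fold. Since the heterozygous lists favour the heterozygote, members listed in both Piwi libraries and not in heterozygous Aub or AGO3 were also summed, and these 4168 were 2.74-fold lower, and at least 1.49-fold with the unlisted at 99 reads. The 358 members listed in mutant Aub were 2.98-fold lower, and at least 2.57-fold, a factor near that of the 4503 listed in both Piwi libraries (3.17-fold, at least 1.84-fold). The larger factor for Aub and AGO3 was thus seen with the heterozygous lists and not with the mutant Aub list. The 108 members shared with OSC myc-Piwi were 1.83-fold lower. Members that no heterozygous immunoprecipitate listed were not lower, at 68840 and 87136 RPM for 2757 of them and 30094 and 31521 for 370 that belonged to families read mostly at 20 to 22 nt.

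The 2 members with the largest losses in total RNA were also listed for Aub and AGO3. They were chosen for the size of that loss, so they add no support to the sums above. A 23 nt member with G at position 10 had 48070 reads in heterozygous total RNA, 6929 in Aub, 10367 in AGO3 and 1434 in Piwi. In the mutant it was unlisted in total RNA and had 146 reads in Aub and 402 in Piwi, so it was at least 362-fold lower in total, 86.8-fold lower in Aub and 2.43-fold lower in Piwi. A second 23 nt member, with 19528 reads in AGO3, went from 16008 total reads to unlisted, at least 120.5-fold lower. The 2 most abundant members of total RNA behaved differently and were listed in no immunoprecipitate of any library. The 24 nt one had 92261 heterozygous and 94845 mutant reads, 1.38-fold higher in share, and the 23 nt one 89824 and 159608, 2.38-fold higher. The member chosen for the largest gain, 25 nt long and also in no immunoprecipitate, had 394 and 15625 reads, 53.2-fold higher. Members in total RNA are therefore not all bound by Piwi proteins at a listed level.

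Counted over all members, 1309 of 12571 in total RNA (10.4%, against 9.04% of all piRNA-size sequences) were at least 4-fold lower in the mutant and 233 (1.85%, against 6.36%) at least 4-fold higher. For most of the 10394 members listed in the heterozygote alone a 4-fold difference could not be established at this depth, since they had too few reads. Mutant immunoprecipitates listed the sequences of 34.9% of mutant total member reads, and the 3 heterozygous ones those of 77.4% of heterozygous total member reads. With Piwi and Aub alone, as in the mutant, the heterozygous value was 74.1%. On that basis the mutant value was lower in the other classes too. It was 23.9% against 45.2% for sequences with A at position 10 only. For those with both bases it was 48.2% against 77.2%, and for those with neither 50.05% against 61.4%. Families read mostly at 20 to 22 nt held 19.9% of mutant and 7.82% of heterozygous total member reads. The microRNA share of these reads was not tested.

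In AGO3 libraries the member share was higher in aub mutant than in Oregon R ovaries, at 25.3% against 7.29% of piRNA-size reads. It rested on 204 and 31 members, and over distinct sequences the shares were 28.7% (95% interval 25.4 to 32.1) and 7.83% (5.38 to 10.9). In krimp heterozygous AGO3 it was 13.3%, so the 2 control libraries also differed. The leading member of both was the same 29 nt sequence with TAGTGG and G at position 10, with 1500 reads in Oregon R and 2629 in the aub mutant, and it was not listed in krimp heterozygous AGO3. A 23 nt member with C at position 10 had 658 and 2520 reads in them and was listed in no other library. 2S rRNA was 65.2% of otherwise eligible reads in Oregon R and 79.0% in the aub mutant, against 1.22% in krimp heterozygous AGO3, and its part in the difference was not tested. G was at position 10 in 49.0% of aub mutant, 48.4% of Oregon R and 36.1% of krimp heterozygous AGO3 members. With 31 members, the Oregon R value is too coarse to place it with either of the others.

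In OSC, a larger part of myc-Aub than of myc-AGO3 members was also listed for myc-Piwi. Of 326 myc-Aub members 183 (56.1%, with 64.9% of reads) were also listed for myc-Piwi, which is 31.9% of the 573 myc-Piwi members. Of 165 myc-AGO3 members 38 (23.03%) were listed for myc-Piwi. An unlisted sequence could have had up to 665 RPM in myc-Piwi, 949 in myc-Aub and 797 in myc-AGO3. Absence from a list therefore does not show that a member was not bound. The same overlaps over all piRNA-size sequences are not given here. The leading myc-Piwi member, 25 nt with G at position 10, had 1035 reads there, 237 in myc-Aub and none listed in myc-AGO3. The leading myc-Aub member, 27 nt with G at position 10, had 876, 960 and 316 reads. The leading myc-AGO3 member, 24 nt with G at position 10, had 1260 reads and was listed for neither of the others, and it belonged to a family read mostly at 20 to 22 nt. Members of myc-Aub were shorter than those of myc-Piwi at 22.2% of 180 shared 5′ ends and longer at 5%, with a median difference of 0 nt. Of the 573 myc-Piwi members, 199 (34.7%) were listed in heterozygous and 245 (42.8%) in mutant ovarian Piwi, against 3 in heterozygous Aub, a much shorter list. Position 2 was U in 15.5% of myc-Piwi member reads and 25.3% of heterozygous ovarian Piwi reads.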

How the data were processed

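The authors deposited, for each library, distinct small RNA sequences with raw read counts, and no file held a count under 100. Per the labels' protocols, small RNAs of 18 to 29 nt were gel-selected and sequenced after library preparation with a TruSeq kit. The build named is dm3, per the submitters' processing notes. Which aligner, trimmer or genome filter was used is not given in the sources used here. Groups came from the labels, with 1 library each.

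From the counts were computed class shares, lengths, base composition, sharing between libraries, 10 nt partners and folds between krimp mutant and heterozygous libraries in the share of piRNA-size reads. A 2S rRNA sequence was taken as the most abundant 30 nt sequence of heterozygous Aub. Named members are the 2 most abundant of each library and, in each krimp comparison, the 2 with the largest fold in each direction among members with at least 1000 reads in 1 of the 2 libraries; the member listed in all 12 libraries was named after its values were seen. Partner and fold counts were checked on simulated data. Members, lists and measures were chosen with earlier results of these data known, and the motif TAGTGG, the 20 to 22 nt families, the next base, the UCC start and the share of 1U reads were added after the files were seen. The files carry no genome positions, and no genome was used. Alternatives were another read minimum, length window, weight, fold, scaling and search size. Python 3.11.15, numpy 2.4.6, scipy 1.17.1, pandas 2.3.3 and matplotlib 3.10.9 were used.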

Additional observations from a re-analysis of the deposited data

How the results depend on the processing

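All 8 differences in member share kept their direction under the 5 alternatives, in percentage points. Counting each distinct sequence once gave -22.4 for krimp mutant minus heterozygous total (-25.0 by reads), -2.37 for Piwi (-2.23), -26.0 for Aub (-27.4), -29.8 for heterozygous AGO3 minus Aub (-27.8), -11.8 for Aub minus Piwi (-19.6), 20.8 for aub mutant minus Oregon R AGO3 (18.0), -10.1 for myc-Aub minus myc-Piwi (-12.7) and -39.5 for myc-AGO3 minus myc-Piwi (-44.6). At 200 reads or more the values, in the same order without Piwi, were -24.8, -26.8, -27.0, -22.0, 17.6, -17.2 and -51.8. At 24 to 28 nt they were -27.5, -2.01, -26.4, -20.8, 19.2, -12.1 and -41.3 (no change beyond counting error for AGO3 minus Aub). Chosen after seeing the data, leaving out 20 to 22 nt families gave -25.8 for total, -27.2 for Aub, -27.4 for AGO3 minus Aub and -20.1 for Aub minus Piwi, and leaving out TAGTGG gave -25.1 for total, -2.45 for Piwi, -31 for Aub, -27.7, -19.7 and 18.3 for aub mutant AGO3. Mean length, mutant minus heterozygous, was -0.412 nt for total, 0.081 for Piwi and 0.084 for Aub, and counted once per sequence -0.222, 0.042 and -0.047, the last reversed; at 200 reads or more it was -0.408, 0.096 and 0.119. At 2-fold, 679 members were higher (5.40%, against 15.04% of all piRNA-size sequences) and 3437 lower (27.3%, 23.2%) in total, 8474 (24.7%, 25%) and 5097 (14.8%, 13.6%) in Piwi, and 114 (6.11%, 12.02%) and 1217 (65.2%, 43.4%) in Aub; scaled to all listed reads 559 were higher in Piwi and 67 in Aub. With all listed sequences searched, 9.52% of members in heterozygous total had a partner (background 1.27%), 1.97% in heterozygous Piwi (2.65%), 35.8% in AGO3 (0.969%) and 1.45% in mutant Piwi (1.17%); with 1000 searched, 5.38% in heterozygous Aub and 19.3% in AGO3; weighted by reads, 6.58% in heterozygous total, 17.2% in Aub and 34.7% in AGO3. The cause of these differences was not tested. The planned removal of further microRNAs was not run because no microRNA table was at hand. Folds rest on 1 library a group, and the read minimum limits what can be said of sequences with few reads. No paired analysis was possible because each group had 1 library and no result came from a test.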
